A study of Mus musculus with 6 samples.

Results

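The genes described here are targets of the hypoxia response that do not encode enzymes of glycolysis. They comprise Bnip3, Bnip3l, Higd1a, Pdk1, Ddit4, Ndrg1, Kdm3a, Ankrd37, Angptl4 and Car9, 10 of the 48440 genes of the count table. They were taken by gene symbol from general knowledge of the pathway, with earlier results of these data known. All 10 had enough reads to be tested. RNA sequencing was performed on murine subcutaneous tissue entangled with BMSCs-engineered cartilage (BEC), that is, cartilage grown in vitro from bone marrow stromal cells of New Zealand white rabbits on PLGA scaffolds. BEC had been wrapped in an electrospun PCL/collagen membrane and kept under the skin of young male BALB/c nude mice for 12 weeks. In the 0%-Axitinib group (n = 3) the membrane held no drug, and in the 3%-Axitinib group (n = 3) it held axitinib, an inhibitor of the VEGF receptor tyrosine kinases, at 3% of the mass of PCL plus collagen. The comparison asks which transcripts of the surrounding tissue differ when the membrane releases a drug against vessel growth. The labels call the samples of the first group untreated controls, and they are read here as the 0%-Axitinib group. The study also had a control group of BEC without a membrane, whereas its methods name the 0%-Axitinib and 3%-Axitinib groups for RNA sequencing. BALB/c nude mice lack a functional thymus and so have few mature T cells, the tissue may include rabbit cells whose transcripts the counts cannot tell apart, and each mouse carried a pair of constructs of the same group, so that samples may share a mouse.

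In cells with ample oxygen, prolyl hydroxylases mark the alpha subunits of the hypoxia-inducible factors (HIF), and the VHL ubiquitin ligase then has them degraded. When oxygen falls, the alpha subunits accumulate, pair with ARNT and bind short hypoxia response elements near their target genes. Outside glycolysis these targets remove mitochondria, divert pyruvate from the tricarboxylic acid cycle, restrain growth signalling, alter chromatin and act on lipids and pH outside the cell, and several of them also answer to glucocorticoids, fasting or other kinds of stress.

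The reads counted on genes numbered 17761968, 16716411 and 18005908 in 0%-Axitinib replicates 1, 2 and 3, and 9225518, 11686084 and 18403795 in 3%-Axitinib replicates 1, 2 and 3. The 10 genes together received 15174, 15866 and 9798 reads in the 0%-Axitinib samples and 11109, 8052 and 15734 in the 3%-Axitinib samples. Expression is given as CPM, that is, read counts scaled to the library size after TMM normalization, with the mean ± SD over 3 samples in parentheses. Values are listed in the order of replicates 1, 2 and 3, those of the 0%-Axitinib group (without axitinib) before those of the 3%-Axitinib group (with axitinib), and abundance within a list was ranked by mean CPM. Differences between groups are given as log2 fold changes of 3%-Axitinib over 0%-Axitinib with their standard error (SE) from edgeR. A gene is said to have risen or fallen where it met the criterion of the study, a fold change of at least 1.5 with an unadjusted p of at most 0.05.

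Libraries that stand apart are given first. Skeletal muscle markers were abundant in 3%-Axitinib replicates 1 and 3 only, with a summed expression over 38 markers of 271, 63.9 and 97.3 CPM in the 0%-Axitinib samples and of 21297, 93.5 and 11874 CPM in the 3%-Axitinib samples. Of the 33 muscle markers tested, 30 rose and 0 fell, and their median log2 fold change was 6.18, whereas limma-voom gave 3 higher with a median of 4.73, and leaving out single samples gave 23 to 36 higher of 33 to 37 tested. Acta1, the most abundant of them, measured 35.1, 0.292 and 0.0543 CPM against 3924, 0.0911 and 1852 CPM and did not meet the criterion. In 3%-Axitinib replicate 2 the defining markers Ckm, Myh4, Myot, Pvalb and Tcap had 0 reads, and a count of 3, the limit of detection used here, would be 0.273 CPM in this library. As to muscle, 3%-Axitinib replicate 2 therefore resembled the 0%-Axitinib samples. The other library apart was 0%-Axitinib replicate 3, whose Spearman correlation over the tested genes was 0.891 and 0.893 with the other 0%-Axitinib samples and 0.846 to 0.877 with the 3%-Axitinib samples, while the other libraries correlated with each other at 0.909 to 0.978. Its erythroid markers summed to 22897 CPM, against 503 and 459 CPM in the other 0%-Axitinib samples and 200.5, 449 and 578 CPM in the 3%-Axitinib samples. The part of either library in the results below was not tested beyond the comparisons without it.

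Of the 10 genes, 2 rose in the 3%-Axitinib group, Ddit4 and Bnip3, and 0 fell. Among all 15257 tested genes, 1456 (9.54%) rose and 1785 (11.7%) fell. Log2 fold changes were positive for 9 of the 10 genes and negative for Bnip3l, with a median of 0.57 beside −0.034 over all tested genes. No gene of the set reached an adjusted p of 0.05 in edgeR, where the unadjusted p was at most 0.05 for 3585 tested genes and 1 (0.00655%) stayed at that level after adjustment, the smallest being 0.0229. That adjusted count depends on single libraries and came to 1252 when 0%-Axitinib replicate 3 was left out, to 58 when it was 3%-Axitinib replicate 2, and to 1572 (10.2%) when both were. The DESeq2 Wald test gave 1 of the 10 genes, Ddit4, an adjusted p below that level among 1960 genes (12.8% of those tested), and limma-voom gave 0 of the 10 among 2 genes. In Ddit4 and Car9, every 3%-Axitinib sample was above every 0%-Axitinib sample, as in 14.7% of all tested genes, and 0 of the 10 showed the opposite, as did 16.6% of all tested genes. With library totals in place of TMM, the median of all tested genes moved to −0.163, the median of the 10 genes became 0.44, 7 of them were positive, and 1 rose, beside 989 (6.48%) of all tested genes higher and 2448 lower.

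On the log2 average over the 10 genes, the 3%-Axitinib samples rich in muscle transcripts were the highest of the 6, whereas by summed CPM 0%-Axitinib replicate 2 was above 3%-Axitinib replicate 3. Summed over the 10 genes, expression was 792, 925 and 532 CPM without axitinib and 1222, 734 and 911 CPM with axitinib. Averaged over the genes on the log2 scale, 3%-Axitinib replicates 1, 2 and 3 lay 0.91, 0.17 and 0.56 above the mean of the 0%-Axitinib group. 3%-Axitinib replicate 1 held the highest value of 6 genes, and 0%-Axitinib replicate 3 the lowest value of 6 genes. When 3%-Axitinib replicate 2 alone was compared with the 0%-Axitinib samples, the median log2 fold change was −0.026 and 0 of the 10 genes met the criterion, where 3.26% of all tested genes rose. With the mean of the muscle markers as a covariate the median was 0.065 and only Ddit4 met it (5.96% of all tested genes rose). On the log2 scale this covariate lay 7.59, −0.50 and 6.50 from the 0%-Axitinib mean in 3%-Axitinib replicates 1, 2 and 3. It is thus largely confounded with the group. Fits with it rest largely on 3%-Axitinib replicate 2 and are no separate check from that replicate alone. Without 3%-Axitinib replicate 2 the median was 0.68, and Ddit4 and Bnip3 met the criterion (7.97% of all rose). Without 0%-Axitinib replicate 3 it was 0.33, and Ddit4 and Higd1a met it (14.5% of all rose). Without both of these libraries, a comparison chosen after seeing the data, it was 0.51 and 4 genes met it, namely Ddit4, Bnip3, Higd1a and Ankrd37, while 15.2% of all tested genes rose. In bulk tissue, fewer cells of a type and less RNA per cell cannot be told apart, and the part of the muscle markers in these values was not tested.

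**Figure D1:**
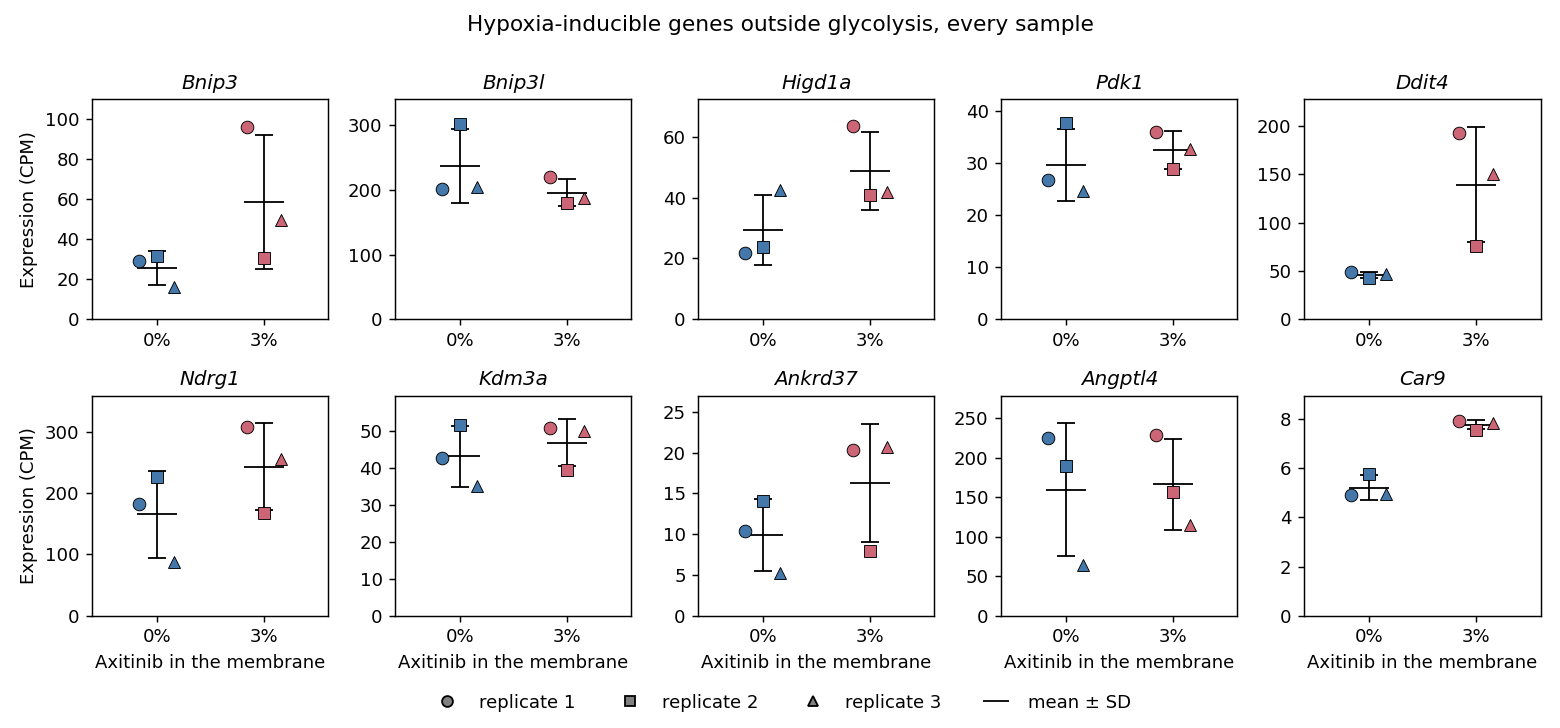
Expression in CPM (vertical axes, each from 0) of the 10 genes in the 3 samples of each group (horizontal axes, axitinib in the membrane), with bars for the mean ± SD. Groups do not overlap for Ddit4 (42.7 to 48.7 against 75.3 to 193 CPM) and Car9 (4.91 to 5.77 against 7.56 to 7.92 CPM), and the squares of 3%-Axitinib replicate 2 lie below the other 3%-Axitinib samples for Ddit4 and Bnip3.

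Mitochondria are the site of action of Bnip3, Bnip3l, Higd1a and Pdk1. Bnip3 encodes a receptor in the outer mitochondrial membrane that hands mitochondria to autophagy. Its expression was 28.9, 31.7 and 15.9 CPM without axitinib (25.5 ± 8.40) and 95.7, 30.6 and 49.3 CPM with axitinib (58.5 ± 33.5). The muscle-rich replicates 1 and 3 of the 3%-Axitinib group were the highest, whereas replicate 2 lay within the range of the 0%-Axitinib group, so the groups overlapped. Bnip3 rose by a log2 fold change of 1.20 (SE 0.46, edgeR adjusted p = 0.180). The rise met the criterion neither with library totals (1.08) nor with the muscle covariate (0.34), nor in 3%-Axitinib replicate 2 alone (0.25). Leaving out 0%-Axitinib replicate 1 (1.29) or 3 (0.94), or 3%-Axitinib replicate 1 (0.65) or 3 (1.30), also ended the call.

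Bnip3l, a related mitophagy receptor that also clears mitochondria from maturing red cells, gave 202, 302 and 205 CPM without axitinib (236 ± 57.1) and 219, 180.2 and 188 CPM with axitinib (196 ± 20.6). The groups overlapped, with 0%-Axitinib replicate 2 the highest. The log2 fold change was −0.27 (SE 0.24, edgeR adjusted p = 0.520), and it did not meet the criterion. It was −0.06 when 0%-Axitinib replicate 2 was left out. Of the 18 other genes of mitophagy and autophagosome formation, 3 rose and 0 fell, with a median log2 fold change of 0.24. Map1lc3a, an ATG8 protein on the membranes of autophagosomes, measured 46.9, 38.9 and 48.1 CPM against 151, 95.8 and 139.7 CPM and rose by 1.53 (SE 0.23). Pink1, the kinase that marks damaged mitochondria, measured 110.2, 93.2 and 96.6 CPM against 215, 146 and 224 CPM and rose by 0.96 (SE 0.23). In these genes the 3%-Axitinib group lay above the other group in every sample, replicate 2 being the lowest of the 3. Fundc1, a hypoxia-responsive receptor of mitophagy, and the survival factor Bcl2 had the lowest log2 fold changes, −0.43 and −0.52, and did not meet the criterion, and Sqstm1, the most abundant of the list, had 0.61. In 3%-Axitinib replicate 2 alone the median of the list was −0.053 and 1 gene rose, with the muscle covariate it was −0.006 and 1 rose, and without that library 3 rose and 2 fell.

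Higd1a encodes a small protein of the inner mitochondrial membrane that acts on the respiratory chain. It was measured at 21.8, 23.9 and 42.5 CPM without axitinib (29.4 ± 11.4) and at 63.5, 40.7 and 41.9 CPM with axitinib (48.7 ± 12.8). 0%-Axitinib replicate 3 was as high as the lower 3%-Axitinib samples, and the groups overlapped through this library alone. The log2 fold change of 0.73 (SE 0.32, edgeR adjusted p = 0.228) did not meet the criterion. It met it with limma-voom (0.75), without the filter on low counts (0.71) and without 0%-Axitinib replicate 3 (1.09, SE 0.24). The relatives Higd1b and Higd2a had log2 fold changes of 0.05 and 0.22 without meeting the criterion, and Higd1c had 0 reads in all samples. With single samples left out, Higd1b ran from −0.29 (3%-Axitinib replicate 2) to 0.47 (3%-Axitinib replicate 1). Higd2a ran from 0.07 (0%-Axitinib replicate 2) to 0.44 (0%-Axitinib replicate 3).

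Pdk1 encodes a kinase that inactivates pyruvate dehydrogenase and so keeps pyruvate out of the tricarboxylic acid cycle. Its values were 26.7, 37.6 and 24.6 CPM without axitinib (29.6 ± 6.98) and 36.0, 28.8 and 32.7 CPM with axitinib (32.5 ± 3.59). All 3%-Axitinib samples lay within the range of the 0%-Axitinib samples, and the log2 fold change was 0.13 (SE 0.23, edgeR adjusted p = 0.751). With single samples left out, it ran from 0.01 (0%-Axitinib replicate 3) to 0.34 (0%-Axitinib replicate 2). In 3%-Axitinib replicate 2 alone the value for Pdk1 was −0.05. Its other isoforms were measured beside it. Pdk4, which is induced by fasting and glucocorticoids, measured 30.2, 29.2 and 9.89 CPM against 545, 10.8 and 217 CPM. It was high in the muscle-rich 3%-Axitinib samples, and 3%-Axitinib replicate 2 was within the range of the 0%-Axitinib samples. Pdk4 rose by 3.48 (SE 1.20), or by 2.31 when 3%-Axitinib replicate 1 was left out. Pdk2, a widely expressed isoform, measured 30.0, 27.5 and 20.2 CPM against 101, 32.5 and 85.9 CPM and rose 2.83-fold (SE 0.42 on the log2 scale) without overlap of the groups. Pdk3 had a log2 fold change of −0.36, or 0.15 when 0%-Axitinib replicate 3 was left out, and did not meet the criterion. Of 10 genes for the subunits of pyruvate dehydrogenase, its phosphatases and the pyruvate carrier, 0 rose and 0 fell, with a median of −0.15. They ranged from Pdp2, a phosphatase (−0.93), to Mpc1, a subunit of the carrier (0.51), and Pdhb, the most abundant, had −0.20, which turned to 0.16 when 0%-Axitinib replicate 3 was left out. Without 0%-Axitinib replicate 3, 1 of these rose and 1 fell, and in 3%-Axitinib replicate 2 alone 1 fell.

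Growth signalling is restrained by Ddit4 and, in tumour cells, by Ndrg1. Ddit4, also known as REDD1, inhibits mTORC1 through the TSC complex and is induced by hypoxia, glucocorticoids and energy stress. Its expression was 48.7, 42.7 and 47.3 CPM without axitinib (46.2 ± 3.12) and 193, 75.3 and 150.1 CPM with axitinib (139 ± 59.5). All 3%-Axitinib samples lay above all 0%-Axitinib samples, including replicate 2, which had as little muscle signal as the 0%-Axitinib samples and was the lowest of its group. Ddit4 rose 3.02-fold, a log2 fold change of 1.59 (SE 0.34, edgeR adjusted p = 0.0972). An exact two-sided permutation test of 3 samples against 3 cannot give a p below 0.1. The log2 fold change was 0.81 (SE 0.26) with the muscle covariate, where the gene still met the criterion, and 0.70 (SE 0.28) in 3%-Axitinib replicate 2 alone, where it did not. Without 3%-Axitinib replicate 2 it was 1.89 (SE 0.22). Its edgeR adjusted p was 0.0448 without that library and between 0.0154 and 0.714 over all alternatives run with edgeR.

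Ddit4l, a paralog that also inhibits mTORC1, measured 5.12, 3.85 and 6.30 CPM against 23.6, 41.2 and 18.6 CPM and rose by 2.45 (SE 0.38, edgeR adjusted p = 0.0965). Unlike Ddit4, it was highest in 3%-Axitinib replicate 2. Of 13 other genes around mTORC1, 2 rose and 1 fell, with a median of 0.02, or −0.11 with library totals. Leaving out single samples 2 rose and 0 to 2 fell, in 3%-Axitinib replicate 2 alone 1 rose and 0 fell, and with the muscle covariate 2 rose and 0 fell. Eif4ebp1, the translational repressor that mTORC1 phosphorylates, was the most abundant and rose by 1.64 (SE 0.31), with 64.3, 62.5 and 89.5 CPM against 282, 145 and 247 CPM. Akt1s1, the inhibitory mTORC1 subunit PRAS40, rose by 0.79 (SE 0.19), and Sesn3, a stress-induced inhibitor of mTORC1, fell by 1.05 (SE 0.33). Mlst8, a core subunit, had a log2 fold change of −0.59 without meeting the criterion. The directions in Ddit4, Ddit4l, Eif4ebp1, Akt1s1 and Sesn3 held in every sample, since the groups did not overlap for any of these 5 genes. In the list of 13 genes, the 3%-Axitinib samples lay above for 3 genes and below for 2, and the groups overlapped for 8. Among all tested genes, 14.7% lay above and 16.6% below.

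Other inducers of Ddit4 are glucocorticoid signalling and the integrated stress response, whose genes were examined beside it. Of 11 glucocorticoid-induced genes (the receptor gene Nr3c1 included), 4 rose and 0 fell, with a median of 0.59. The median was 0.27 without 0%-Axitinib replicate 3 (4 rose), 0.25 in 3%-Axitinib replicate 2 alone and 0.26 with the muscle covariate (3 rose in each). The metallothioneins Mt2, the most abundant, and Mt1 bind metal ions and also answer to zinc. Mt2 measured 174, 141 and 75.9 CPM against 3731, 2503 and 1490.5 CPM and rose by 4.30 (SE 0.53), and Mt1 rose by 3.11 (SE 0.32). Both were far above the 0%-Axitinib group in all 3%-Axitinib samples. Nr3c1 had −0.57 and Sgk1, a kinase of ion transport, −0.15, and neither met the criterion. Sgk1 turned to 0.32 when 0%-Axitinib replicate 2 was left out. Of 11 genes of the integrated stress response, 3 rose and 0 fell, with a median of 0.19, and without 0%-Axitinib replicate 3 the count was 6 with a median of 0.62. In 3%-Axitinib replicate 2 alone 0 rose and 2 fell (median 0.14), and with the muscle covariate 1 rose and 2 fell (median 0.12). Leaving out 0%-Axitinib replicate 1 or 3%-Axitinib replicate 1 brought the median to 0.03. Chac1, which degrades glutathione, measured 1.93, 0.991 and 1.85 CPM against 50.8, 4.74 and 27.4 CPM and rose by 4.11 (SE 0.84), or 3.34 when 3%-Axitinib replicate 1 was left out, and the transcription factor Atf5 rose by 1.05 (SE 0.29). Atf4, the central factor of the response and the most abundant, had 0.03, and Atf3 and the cystine carrier Slc7a11 had −0.52 and −0.32, without meeting the criterion. Their signs turned when 0%-Axitinib replicate 2 (0.13 for Atf3) or 3%-Axitinib replicate 2 (0.05 for Slc7a11) was left out.

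Ndrg1, a cytoplasmic protein that also keeps peripheral myelin intact, had 182, 226 and 87.1 CPM without axitinib (165 ± 70.9) and 307, 167 and 255 CPM with axitinib (243 ± 70.8). 3%-Axitinib replicates 1 and 3 were the highest and 0%-Axitinib replicate 3 the lowest, and replicate 2 of the 3%-Axitinib group was below both other 0%-Axitinib samples. The log2 fold change of 0.56 (SE 0.40, edgeR adjusted p = 0.420) did not meet the criterion, and it was 0.09 with the muscle covariate. Its relative Ndrg2, which is prominent in muscle and glia, measured 66.9, 37.0 and 32.5 CPM against 416, 119 and 272 CPM. Ndrg2 was above the 0%-Axitinib group in all 3%-Axitinib samples and rose by 2.56 (SE 0.52, edgeR adjusted p = 0.0965). Ndrg3 and Ndrg4 had 0.31 and −0.04 and did not meet the criterion, Ndrg4 having 0.43 when 0%-Axitinib replicate 1 was left out. Of 10 Schwann cell markers, which bear on Ndrg1, 1 rose and 0 fell, with a median of 1.02. This count is unstable, since 6 rose without 0%-Axitinib replicate 1 (median 1.71), 2 rose and 1 fell without 0%-Axitinib replicate 3 (median 0.71), 0 rose without any of the other libraries or with library totals, and 5 rose with limma-voom. Their sum was 1883, 802 and 353 CPM against 2201, 2203 and 1931 CPM, with Pmp22 the most abundant, and their part in the values of Ndrg1 was not tested.

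The nucleus is the site of action of Kdm3a, a histone demethylase that removes methyl groups from lysine 9 of histone H3. It gave 42.9, 51.7 and 35.3 CPM without axitinib (43.3 ± 8.25) and 50.9, 39.5 and 50.2 CPM with axitinib (46.9 ± 6.37). The groups overlapped almost entirely, and the log2 fold change was 0.12 (SE 0.21, edgeR adjusted p = 0.766), or −0.01 with library totals. It was also negative without 0%-Axitinib replicate 3 (−0.02), with the muscle covariate (−0.07) and in 3%-Axitinib replicate 2 alone (−0.14). Without 0%-Axitinib replicate 2 the value for Kdm3a was 0.26. Its relatives were lower in all 3%-Axitinib samples than in all 0%-Axitinib samples. Jmjd1c measured 67.0, 83.2 and 63.3 CPM against 46.3, 49.1 and 41.3 CPM and fell by 0.64 (SE 0.18). Kdm3b measured 65.4, 78.4 and 60.9 CPM against 50.7, 41.7 and 46.8 CPM, and its log2 fold change of −0.56 (SE 0.18) did not reach the fold change of the criterion.

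Ankrd37 encodes a small protein with ankyrin repeats and had 10.4, 14.1 and 5.21 CPM without axitinib (9.90 ± 4.44) and 20.3, 7.93 and 20.7 CPM with axitinib (16.3 ± 7.27). The muscle-rich 3%-Axitinib samples exceeded the 0%-Axitinib range and replicate 2 did not. A log2 fold change of 0.72 (SE 0.49, edgeR adjusted p = 0.400) did not meet the criterion. It turned negative with the muscle covariate (−0.13) and in 3%-Axitinib replicate 2 alone (−0.34).

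Angptl4 and Car9 act outside the cell. Angptl4 is a secreted inhibitor of lipoprotein lipase that hypoxia, PPARs and glucocorticoids induce. Its expression was 224, 189.5 and 64.2 CPM without axitinib (159 ± 84.2) and 228, 156 and 115 CPM with axitinib (166 ± 57.5). The groups overlapped, 0%-Axitinib replicate 3 being the lowest. The log2 fold change of 0.06 (SE 0.48, edgeR adjusted p = 0.948) was negative with library totals (−0.07), without 0%-Axitinib replicate 3 (−0.32) and without 3%-Axitinib replicate 1 (−0.24). It was also negative with the muscle covariate (−0.16) and in 3%-Axitinib replicate 2 alone (−0.05). Without both 3%-Axitinib replicate 2 and 0%-Axitinib replicate 3 the value for Angptl4 was −0.27, whereas it was 0.39 without 0%-Axitinib replicate 1. Of its relatives, Angptl1 rose by 0.91 (SE 0.31), with 10.2, 10.5 and 6.36 CPM against 19.0, 19.1 and 12.7 CPM, while Angptl2, Angptl6 and Angptl7 had 0.77, 0.12 and 0.67 and did not meet the criterion. Of 16 tested genes of the lipoprotein lipase axis and of PPAR targets, 2 rose and 3 fell, with a median of 0.22, and 5 fell without 0%-Axitinib replicate 3 and 1 without 3%-Axitinib replicate 2. The median turned to −0.52 in 3%-Axitinib replicate 2 alone (0 rose, 1 fell) and to −0.32 with the muscle covariate (1 rose, 1 fell). Those that rose were Fabp3, a fatty acid binding protein of muscle (4.19, SE 0.92), and Ucp3, an uncoupling protein of muscle mitochondria (3.58, SE 1.29). Among those that fell were Gpihbp1, which anchors lipoprotein lipase to capillaries (−2.30, SE 0.94), and Cd36, the fatty acid carrier and most abundant of the list (−1.74, SE 0.69). Gpihbp1 measured 34.2, 36.4 and 108 CPM against 1.21, 9.84 and 24.8 CPM, and its value was −1.54 when 0%-Axitinib replicate 3 was left out and −3.41 when it was 3%-Axitinib replicate 3. Cd36 measured 1392, 3367 and 469 CPM against 443, 409 and 711 CPM, so the groups overlapped, and its value was −0.84 when 0%-Axitinib replicate 2 was left out. Ucp3 measured 1.93, 0.933 and 0.380 CPM against 27.1, 0.364 and 11.8 CPM, so 3%-Axitinib replicate 2 was below all 0%-Axitinib samples, and its value was 2.49 when 3%-Axitinib replicate 1 was left out.

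Car9, carbonic anhydrase IX, is an enzyme on the cell surface that hydrates carbon dioxide and acidifies the surroundings of hypoxic cells. It had the fewest reads of the set, with 94, 99 and 91 reads in the 0%-Axitinib samples and 72, 83 and 135 in the 3%-Axitinib samples. These gave 4.91, 5.77 and 4.94 CPM (5.21 ± 0.490) against 7.92, 7.56 and 7.82 CPM (7.77 ± 0.184). The 3%-Axitinib samples were close together and all above the 0%-Axitinib samples, and replicate 2 was no exception. The fold change of 1.49 (log2 0.58, SE 0.27, edgeR adjusted p = 0.247) fell short of the criterion. It changed little with the muscle covariate (log2 0.57, SE 0.39), without meeting the criterion. In 3%-Axitinib replicate 2 alone it was log2 0.53 (SE 0.47), and both comparisons rest largely on that library. Other carbonic anhydrases differed in direction. Car12, another membrane-bound form, measured 2.24, 6.76 and 5.11 CPM against 8.47, 85.4 and 21.0 CPM and rose by 3.02 (SE 0.88). It was highest in 3%-Axitinib replicate 2 and did not overlap, and its value was 1.66 when that library was left out. Car2, a cytosolic form abundant in red cells and osteoclasts, measured 18.3, 28.8 and 365 CPM against 8.47, 13.8 and 20.5 CPM and fell by 3.26 (SE 1.16), its highest value being in 0%-Axitinib replicate 3, the library rich in hemoglobin, and its value was −0.71 when that library was left out. Car3, a form of muscle and fat, had 0.74, or −0.63 when 3%-Axitinib replicate 1 was left out, and Car4 had −0.16, or −0.95 to 0.47 over the single samples left out, neither meeting the criterion, and Car14 had too few reads to be tested.

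**Figure D2:**
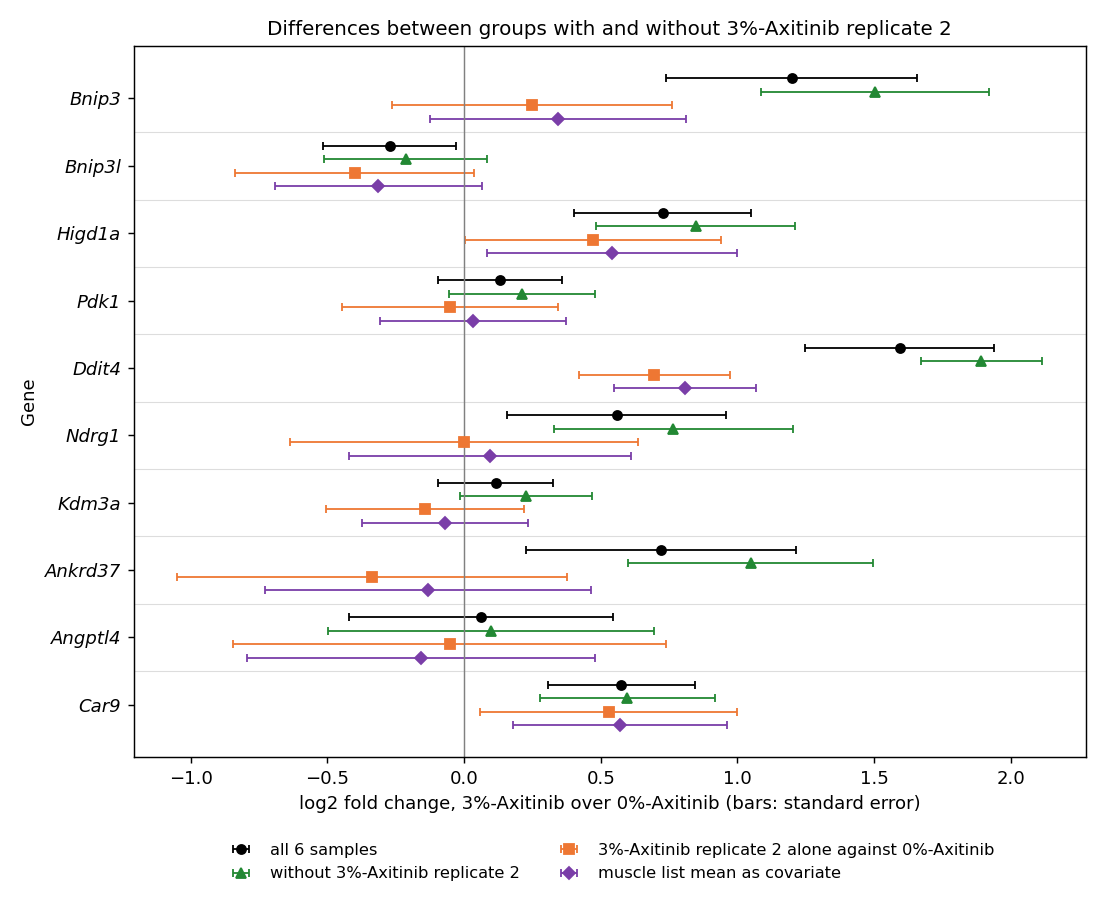
Log2 fold change of 3%-Axitinib over 0%-Axitinib (horizontal axis, bars for the SE) of the 10 genes (vertical axis) with all 6 samples, without 3%-Axitinib replicate 2, with that replicate alone against the 0%-Axitinib group, and with the mean of the muscle markers as a covariate. Bnip3 moves from 1.20 to 0.25 and Ddit4 from 1.59 to 0.70 in replicate 2 alone, while Car9 stays between 0.53 and 0.60. The covariate is high only in 3%-Axitinib replicates 1 and 3, so the fit with it also rests largely on replicate 2.

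Levels of different genes were compared as CPM per kilobase of exon. On this scale the means of the 0%-Axitinib group ran from Bnip3l (61.3 ± 14.8), Angptl4 (45.0 ± 23.8), Ddit4 (26.3 ± 1.78) and Ndrg1 (25.0 ± 10.8) down to Kdm3a (5.26 ± 1.00), Pdk1 (3.81 ± 0.897) and Car9 (2.26 ± 0.213). The differences between Bnip3l and Angptl4, and between Ddit4 and Ndrg1, were within their spread over samples. In the 3%-Axitinib group, Ddit4 had the highest mean level per kilobase (79.5 ± 33.9), followed by Bnip3l (50.7 ± 5.34), Angptl4 (47.0 ± 16.2) and Ndrg1 (36.9 ± 10.7), with overlapping spreads, and the order of the other 6 genes was that of the 0%-Axitinib group.

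Across the 6 samples, which include the difference between the groups and the muscle-rich samples, the log2 expression of Ndrg1, Ankrd37 and Kdm3a varied together. Pearson's r was 0.958 for Ndrg1 with Ankrd37, 0.951 for Ankrd37 with Kdm3a and 0.931 for Ndrg1 with Kdm3a (n = 6 samples). Bnip3 correlated with Ndrg1 at 0.908 and with Ddit4 at 0.868. Bnip3l had r from −0.392 with Higd1a to 0.604 with Pdk1, with −0.362 for Ddit4, 0.024 for Bnip3, 0.219 for Ankrd37, 0.222 for Ndrg1 and 0.493 for Kdm3a. The genes outside all lists whose log2 expression was most like the mean of the set, of 9705 genes with at least 10 CPM on average, were H19 (r = 0.989), Anxa7 (0.988), AU022252 (0.981), Htra2 (0.977) and Ube2d-ps (0.976). H19, an imprinted long noncoding RNA that is abundant in fetal tissue and in skeletal muscle, measured 8.04, 14.3 and 1.14 CPM against 398, 18.5 and 51.2 CPM. It was highest in 3%-Axitinib replicate 1 and rose by 4.31 (SE 1.36), whereas the other 4 genes did not meet the criterion.

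The HIF subunits and oxygen sensors moved in both directions, with 2 of 10 genes higher, 2 lower and a median of −0.076. With library totals 1 rose and 2 fell, and when any single sample was left out 0 to 3 rose and 0 to 2 fell, the count being 0 in both directions without 3%-Axitinib replicate 3. With the muscle covariate 0 rose and 1 fell (median −0.38), and in 3%-Axitinib replicate 2 alone 0 rose and 0 fell (median −0.42). Hif1a, the subunit HIF-1 alpha, measured 85.3, 79.0 and 74.5 CPM against 56.1, 58.0 and 40.0 CPM. Epas1, the subunit HIF-2 alpha, which is prominent in endothelial cells, measured 173, 163 and 111 CPM against 103, 82.2 and 89.3 CPM. Both alpha subunits were lower in all 3%-Axitinib samples, and Hif1a fell by 0.63 (SE 0.20, edgeR adjusted p = 0.138) and Epas1 by 0.70 (SE 0.24, edgeR adjusted p = 0.150). Hif3a, whose product can act as an inhibitor of the others, measured 2.82, 3.50 and 1.90 CPM against 7.92, 4.56 and 10.9 CPM and rose by 1.51 (SE 0.44). Egln2, a prolyl hydroxylase, measured 76.9, 67.0 and 68.4 CPM against 111, 90.9 and 138 CPM and rose by 0.68 (SE 0.21). For Hif3a and Egln2 all 3%-Axitinib samples were above the other group, with replicate 2 the lowest of them. Egln3, a prolyl hydroxylase that is itself induced by hypoxia, measured 23.5, 40.6 and 23.7 CPM against 96.2, 18.2 and 51.4 CPM. It was high in the muscle-rich samples and lowest of all in 3%-Axitinib replicate 2. The difference of 0.92 (SE 0.56) did not meet the criterion, and it was 0.26 when 3%-Axitinib replicate 1 was left out. Egln1, Arnt, Arnt2, Hif1an and Vhl had 0.00, −0.15, 0.51, −0.25 and −0.48 and did not meet it either. Without 0%-Axitinib replicate 3 their values were −0.14, −0.38, 0.26, −0.04 and −0.11. Arnt turned to 0.03 when 0%-Axitinib replicate 1 was left out. HIF activity is set mainly by protein stability, which these data do not measure.

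Of 25 other hypoxia-inducible genes outside glycolysis, 7 rose and 1 fell, with a median of 0.32. Lox, which crosslinks collagen and was the most abundant, measured 174, 177 and 91.0 CPM against 567, 874 and 239.7 CPM and rose by 1.93 (SE 0.52). It was above the 0%-Axitinib range in all 3%-Axitinib samples and highest in replicate 2. Wsb1, part of a ubiquitin ligase, fell by 1.04 (SE 0.18), with 116, 131 and 135 CPM against 65.7, 64.4 and 55.4 CPM. Tfrc, the transferrin receptor, had −1.69 and did not meet the criterion, and 0%-Axitinib replicate 3 held its highest value of 342 CPM. Its value was −0.35 when that library was left out. In 3%-Axitinib replicate 2 alone the median of this list was 0.066, with 7 genes higher and 2 lower. When single samples were left out 6 to 8 rose and 1 to 2 fell, and the median ran from 0.12 without 0%-Axitinib replicate 3 to 0.54 without 0%-Axitinib replicate 2.

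Of 19 hypoxia-inducible genes of glycolysis and glucose transport, 3 rose and 0 fell, with a median of 0.29. Gapdh measured 907, 1107 and 958 CPM against 2600.4, 1606 and 2779.9 CPM and rose by 1.23 (SE 0.33), and Aldoa measured 1136, 1495 and 1040.4 CPM against 3320.3, 1327 and 2935 CPM and rose by 1.05 (SE 0.42). Aldoa was high only in the muscle-rich samples. Pkm, the pyruvate kinase and most abundant of the list, had 0.43, while the glucose carrier Slc2a3 and the regulator Pfkfb4 had −1.44 and −0.37, and none of these met the criterion. Slc2a3 measured 11.5, 12.9 and 136 CPM against 22.1, 19.6 and 17.6 CPM, and its value turned to 0.69 when 0%-Axitinib replicate 3 was left out. In 3%-Axitinib replicate 2 alone the median was −0.11 with 0 genes higher, and with the muscle covariate it was −0.027 with 0 higher. Library totals left 1 gene higher, as did leaving out 0%-Axitinib replicate 1, 3%-Axitinib replicate 1 or 3%-Axitinib replicate 3. The count was 4 when 0%-Axitinib replicate 3 or 3%-Axitinib replicate 2 (median 0.52) was left out, 5 with the DESeq2 Wald test and 7 when both of these libraries were left out. Of the 20 tested paralogs of the 10 genes, 6 rose and 2 fell, with a median of 0.27, and leaving out single samples gave 4 to 8 higher, 0 to 3 lower and medians of 0.21 to 0.57. With the muscle covariate 3 of them rose and 1 fell, as in 3%-Axitinib replicate 2 alone.

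Other cell type markers also differed between the groups. Of 20 endothelial markers, 0 rose and 16 fell, with a median of −1.30 and a sum of 1703, 1096 and 1654 CPM against 565, 813 and 862 CPM. With the muscle covariate 11 fell, in 3%-Axitinib replicate 2 alone 10, and leaving out single samples 12 to 16. Cldn5 fell by 2.38 (SE 0.47), or by 1.71 when 0%-Axitinib replicate 3 was left out, and Cdh5 by 2.37 (SE 0.35), whereas Plvap, the most abundant, had −0.39 and did not meet the criterion. The endothelial sum was lower in all 3%-Axitinib samples, 3%-Axitinib replicate 2 included. Of 11 tested adipocyte markers, 1 rose and 2 fell, with a median of −1.13, and the sum over all 13 listed was 958, 987 and 1127 CPM against 1058, 501 and 840.0 CPM. These counts depend on single libraries, since 7 fell and 0 rose without 3%-Axitinib replicate 1 (median −2.88), 2 fell and 3 rose without 3%-Axitinib replicate 2 (median −0.55), 6 fell in 3%-Axitinib replicate 2 alone (median −4.69) and 7 with the muscle covariate (median −3.96). Fabp4, the most abundant, fell by 1.22 (SE 0.25), and the defining marker Adipoq was near 0 in 3%-Axitinib replicate 2, with 0.456 CPM. Of 13 tested chondrocyte markers, 6 rose and 0 fell, with a median of 1.34, or 2.10 without 0%-Axitinib replicate 1 (8 rose) and 0.87 without 3%-Axitinib replicate 2 (4 rose). The sum over the 15 listed that are in the count table was 403, 243 and 257 CPM against 371, 1491 and 585 CPM, Comp being the most abundant. Fibroblast markers had 2 of 10 higher and 0 lower, with a median of 0.83 and Col1a1 the most abundant, and summed to 32354, 16986 and 11228 CPM against 29702, 76232 and 32395 CPM. With library totals 0 of them rose, and leaving out single samples gave 0 to 3 higher, with medians of 0.43 to 1.26. Chondrocyte and fibroblast sums were highest in 3%-Axitinib replicate 2. Macrophage markers had 0 of 12 higher and 0 lower in edgeR, with a median of −0.14 and Lyz2 the most abundant, and summed to 11790, 13783 and 8521 CPM against 8935, 10946 and 17018 CPM. Their median turned to 0.15 without 0%-Axitinib replicate 2, and 1 fell without 0%-Axitinib replicate 3. Of 6 tested erythroid markers, 0 rose and 5 fell, with a median of −4.35 and Hbb-bs the most abundant, and without 0%-Axitinib replicate 3 the median was −0.35 and 1 fell. Leaving out any 3%-Axitinib sample, or limma-voom, gave 0 lower. Of 12 keratinocyte markers 5 were tested, of which 0 rose and 2 fell, with a median of −1.90. Without 0%-Axitinib replicate 2 the median was 0.52 and 0 fell, and 4 fell without 0%-Axitinib replicate 1 or 3. The sum over all 12 was 13.9, 992 and 13.6 CPM against 14.96, 11.9 and 20.4 CPM. Krt1, the most abundant of the 12, was not tested for want of reads in enough samples. It had 273 CPM in 0%-Axitinib replicate 2 and was at or near 0 in the other libraries. The part of these cell types in the values of the 10 genes was not tested.

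The 10 genes lie on different chromosomes, so that none neighbours another. In the GENCODE annotation of GRCm38, Bnip3 lies at chr7:138890836-138909519, Bnip3l at chr14:66985239-67008877, Higd1a at chr9:121848563-121858362, Pdk1 at chr2:71873224-71903858 and Ddit4 at chr10:59949669-59951834. Ndrg1 lies at chr15:66929318-66969640, Kdm3a at chr6:71588972-71632990, Ankrd37 at chr8:45996902-46005707, Angptl4 at chr17:33773750-33781830 and Car9 at chr4:43506966-43513729. Genes on the opposite strand overlap 5 of them, and whether reads were counted by strand is not stated. They cover 22.7% of the exon bases of Ankrd37 (Lrp2bp), 22.5% of Higd1a (Gm47112), 22.3% of Bnip3 (Gm45507), 9.29% of Car9 (Gm12454) and 6.35% of Ndrg1 (Gm17035). Stretches of 50 bases that also occur in transcripts of other genes make up 47.2% of those of Bnip3, 24.4% of Higd1a, 20.8% of Bnip3l (all in the pseudogene Bnip3l-ps) and 0% of Ddit4, Pdk1, Angptl4 and Kdm3a. Reads from such stretches may have been left out of the counts or given to the other gene.

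Since hypoxia response elements share a short core, the promoters were searched for the letters ACGTG and GCGTG on both strands. Windows of 300 bases, 250 before to 50 after the start, were available from RefSeq (GRCm38.p6) for 7 of the 10 genes, and none for Bnip3l, Ndrg1 or Angptl4. All 7 genes had a match in a window, 7 of their 10 windows in all. Of 32851 promoter windows, 19.6% held ACGTG, 32.4% held GCGTG and 43.8% held either. The share with either was 59.4% among 13981 windows of genes tested here and 70% among the 10 windows of the set. Both motifs contain a CpG pair. The median number of CpG pairs was 7 for all windows, 19 for those of tested genes and 24.5 for those of the set. A share per gene was not computed for all genes. The window of Pdk1 at chr2:71872974-71873273 held GCGTG 2 times and a window of Kdm3a at chr6:71632868-71633167 held it 1 time. A match of these letters is a description of the sequence and does not show that a factor binds there.

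The windows of the genes that rose, of the other gene whose groups did not overlap and of those with matches of both kinds are shown 5′ to 3′ on the strand of the gene, with the matches on either strand in capitals. The window of Bnip3, at chr7:138909457-138909756 on the minus strand, held ACGTG 2 times, as the strands of 1 palindrome, and GCGTG 3 times. The window of Ddit4, at chr10:59951721-59952020 on the minus strand, held each of the motifs 1 time. The window of Car9, at chr4:43506776-43507075 on the plus strand, held ACGTG 1 time. The window of Ankrd37, at chr8:45999801-46000100 on the minus strand, held each of the motifs 2 times. The window of Higd1a, at chr9:121857747-121858046 on the minus strand, held ACGTG 1 time and GCGTG 2 times.
Bnip3: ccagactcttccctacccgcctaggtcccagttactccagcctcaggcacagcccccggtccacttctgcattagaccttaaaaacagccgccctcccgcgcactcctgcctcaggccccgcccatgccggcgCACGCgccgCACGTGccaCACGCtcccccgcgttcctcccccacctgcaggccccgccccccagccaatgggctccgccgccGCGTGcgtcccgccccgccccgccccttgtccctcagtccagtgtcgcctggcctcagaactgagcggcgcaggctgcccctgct
Ddit4: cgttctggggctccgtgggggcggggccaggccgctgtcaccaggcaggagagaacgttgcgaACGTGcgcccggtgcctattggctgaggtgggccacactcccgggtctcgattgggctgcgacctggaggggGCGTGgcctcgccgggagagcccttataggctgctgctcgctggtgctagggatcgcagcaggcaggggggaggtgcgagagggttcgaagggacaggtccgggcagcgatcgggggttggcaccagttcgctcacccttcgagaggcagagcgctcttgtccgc
Car9: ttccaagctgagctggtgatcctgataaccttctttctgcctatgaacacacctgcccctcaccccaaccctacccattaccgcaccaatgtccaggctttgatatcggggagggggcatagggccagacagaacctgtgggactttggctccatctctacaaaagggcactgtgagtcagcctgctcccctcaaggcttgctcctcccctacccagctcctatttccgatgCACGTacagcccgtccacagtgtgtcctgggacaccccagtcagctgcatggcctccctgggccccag
Ankrd37: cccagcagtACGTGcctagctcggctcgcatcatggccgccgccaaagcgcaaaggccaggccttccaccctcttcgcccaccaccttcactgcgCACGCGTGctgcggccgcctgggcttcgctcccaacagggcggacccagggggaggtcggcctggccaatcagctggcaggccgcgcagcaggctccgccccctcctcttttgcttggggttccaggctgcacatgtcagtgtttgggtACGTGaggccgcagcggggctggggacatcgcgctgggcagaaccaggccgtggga
Higd1a: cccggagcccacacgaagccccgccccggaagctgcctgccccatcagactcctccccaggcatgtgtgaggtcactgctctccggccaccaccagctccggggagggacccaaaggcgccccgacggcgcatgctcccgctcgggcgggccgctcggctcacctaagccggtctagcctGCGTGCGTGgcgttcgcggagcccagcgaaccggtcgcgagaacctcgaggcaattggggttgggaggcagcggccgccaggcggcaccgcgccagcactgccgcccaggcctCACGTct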

How the data were processed

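The authors deposited raw read counts per gene symbol, made by filtering reads with fastp and aligning them with STAR (2.5.2b in the submitters' processing notes) to mm10 (GRCm38). The annotation release and the strand setting are not given in the sources used here. Of 48444 lines, 4 were not genes and were kept out of library sizes, namely unmapped reads (3.84% to 48.4% of a library), multimapping reads (2.71% to 6.65%), reads outside genes (3.17% to 6.14%) and ambiguous reads (3.55% to 5.74%). Genes were filtered with filterByExpr (minimum count 10, minimum total 15), normalized with TMM and tested with the edgeR 4.0.16 quasi-likelihood test in R 4.3.3, with Benjamini-Hochberg adjustment over 15257 tested genes. The p-values measure the spread between samples only. CPM were taken after TMM, log2 values with a prior count of 2, and standard errors from the log2 fold change and its F statistic. Alternatives used DESeq2 1.42.0 (size factors, Wald test), limma 3.58.1 (voom), library totals, TMM without muscle markers, other filters, a fold change of 2, a replicate block, a muscle covariate, 3%-Axitinib replicate 2 alone, and each sample left out in turn. The scripts were tested on simulated data. A count of 3 was taken as the limit of detection, which covers counting error only. Positions, exon lengths and transcript sequences came from GENCODE vM21 (GRCm38), and promoters from RefSeq (GRCm38.p6). Figures were drawn with matplotlib 3.10.9.

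The 10 genes and all lists were chosen with earlier results of these data known. Lists were written from general knowledge and cover HIF subunits and oxygen sensors, other hypoxia-inducible genes, glycolytic genes, paralogs, mitophagy, pyruvate dehydrogenase, mTORC1, the lipoprotein lipase axis, glucocorticoid-induced genes, the integrated stress response and 9 cell types. The text may name all 10 genes, all HIF genes and paralogs, and from each other list the most abundant gene, the 2 with the largest increase, the 2 with the largest decrease and defining markers at or near 0. It also names the 5 genes outside the lists, with a mean of at least 10 CPM, that correlated best with the mean of the set.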

Additional observations from a re-analysis of the deposited data

Results flagged for a closer look

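Reads that could not be mapped to the mouse genome, which no comparison here uses, made up a larger share of the libraries in the 3%-Axitinib group than in the control samples. They averaged 31.5% of the library (SD 15.9, n = 3) in the 3%-Axitinib group, against 8.08% (SD 5.99, n = 3) in the 0%-Axitinib group. The single values were 48.4%, 29.2% and 16.8% in 3%-Axitinib replicates 1, 2 and 3, and 5.47%, 3.84% and 14.9% in 0%-Axitinib replicates 1, 2 and 3. The origin of these reads was not tested.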

How the results depend on the processing

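Bnip3 and Ddit4, which met the criterion with all samples, kept their direction under every alternative, and 0 of the 10 fell under any of them. With library totals, 1 of the 10 genes rose in place of 2, beside 989 of all tested genes higher and 2448 lower. The DESeq2 Wald test gave 1 of the 10 an adjusted p of at most 0.05, as it did 1960 (12.8%) of all tested genes. With the muscle covariate, 1 of the 10 rose, the median of the 10 genes was 0.065, and 909 (5.96%) of all tested genes rose and 848 fell. In 3%-Axitinib replicate 2 alone, 0 of the 10 rose, the median was −0.026, and 558 (3.26%) of all tested genes rose and 608 fell. A fold change of at least 2 left 879 genes higher and 1072 lower. With each sample left out in turn, 1 to 2 of the 10 genes rose, 0 to 1 passed 0.05 after adjustment beside 0 to 1252 of all, and 1055 to 2274 (6.65% to 14.5%) of all tested genes rose, the highest count being without 0%-Axitinib replicate 3. Without both 3%-Axitinib replicate 2 and 0%-Axitinib replicate 3, an alternative chosen after seeing the data, 4 of the 10 rose, 2 passed 0.05 after adjustment, and 2346 (15.2%) of all tested genes rose while 1572 passed it. For Bnip3 and Ddit4, the genes called with all samples, the call held in 8 of 12 comparisons with a sample left out and was lost in 4, and under the other alternatives it held in 18 of 22 and was lost in 4. The 8 genes not called gained a call in 1 of 48 and in 4 of 88 comparisons. With the replicate number as a block (replicate block), 2 of the 10 genes rose and the median was 0.60, while 1249 (8.19%) of all tested genes rose and 1354 fell. Deviations from the group means correlated at 0.18, −0.12 and −0.17 between samples of the same number. Between samples of different numbers they ran from −0.22 to 0.21. With 3 samples per group these correlations constrain each other, so they cannot decide whether the numbers pair the samples. 3%-Axitinib replicate 2 alone was assumed to vary like the 0%-Axitinib samples. The cause of these differences was not tested. Car9 had the fewest reads of the 10, with 72 to 135 per sample.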
